A study of Mus musculus with 12 samples.

Results

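The genes that copy DNA in S phase were followed across cultured cells and tissue of the mouse superior cervical ganglion (SCG), the sympathetic ganglion at the top of the neck, which holds postmitotic noradrenergic neurons among satellite glia, Schwann cells, fibroblasts, vessels and macrophages. The list names 41 genes, from the licensing of replication origins to the supply of nucleotides and histones. A gene was represented by the probe set that carries its symbol alone and has the highest mean over the 12 arrays. This left 40 of the 41 genes, among 18193 genes measured; Chaf1a was not analysed here because no probe set given here carried its symbol alone.

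Total RNA was measured on Affymetrix whole-genome mouse expression arrays, with 4 biological replicates in each of 3 groups, all labelled as CD1 mice. The 3D group was SCG cells grown in polystyrene scaffolds. The 2D group was SCG cells grown on a flat substrate, which the labels call a polystyrene Petri dish and the methods a glass bottom dish. Both cultures were made from enzymatically dissociated ganglia, plated as cells and cell chunks on type I collagen, kept in medium with serum, and taken after 5 days. The methods name no step that removes dividing cells or sorts neurons from other cells. The tissue group was freshly dissected ganglia, which the design uses as the in vivo standard for the cultures. The labels give an age of 21 days for all 3 groups, while the methods describe neonatal mice, so that the age of the animals behind each group is not settled. The labels do not say which animals were pooled in which replicate.

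Before a cell divides it loads the MCM helicase on its origins, switches it on with Cdc45 and GINS, and copies both strands with primase and the replicative polymerases, which are held on DNA by the sliding clamp PCNA. Most of these genes are transcribed together late in G1 and in S phase, when E2F factors are released from the retinoblastoma protein, and they are low in cells that have left the cycle. Mature sympathetic neurons do not divide, whereas glia and fibroblasts of the ganglion can. In a bulk array, fewer dividing cells and less RNA per dividing cell cannot be told apart.

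Values are log2 levels from the robust multichip average (RMA). A difference of 1 on this scale is 2-fold. Levels of different probe sets are not comparable with each other, so each gene is compared only with itself across arrays. Differences were tested with limma over all 45037 probe sets that are not controls, and a gene is called where its Benjamini-Hochberg adjusted p is under 0.05. Errors of differences are standard errors, with n = 4 in each group.

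Most of the replication genes were higher in both cultures than in tissue, and no gene of the list was called between the 2 cultures. In 3D against tissue, 29 of 40 were called higher and 1 lower, where 20.1% of all genes were called higher and 15.5% lower. Their median difference was 1.36, beside -0.03 for all genes. In 2D against tissue, 26 were called higher and 0 lower, beside 14.3% and 9.87% of all genes, with a median difference of 1.32 beside -0.03. For 26 of the 40 genes all 8 culture arrays lay above all 4 tissue arrays, and for 0 below, against 17% and 12.1% of all genes. The 3D arrays alone lay above tissue for 30 genes and below for 1 (24.1% and 18.3% of all genes), and the 2D arrays alone above for 26 and below for 0 (18.5% and 15.3%). In 3D against 2D, 0 of 40 were called in either direction, where 0.0165% of all genes were called higher and 0% lower.

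**Figure D1:**
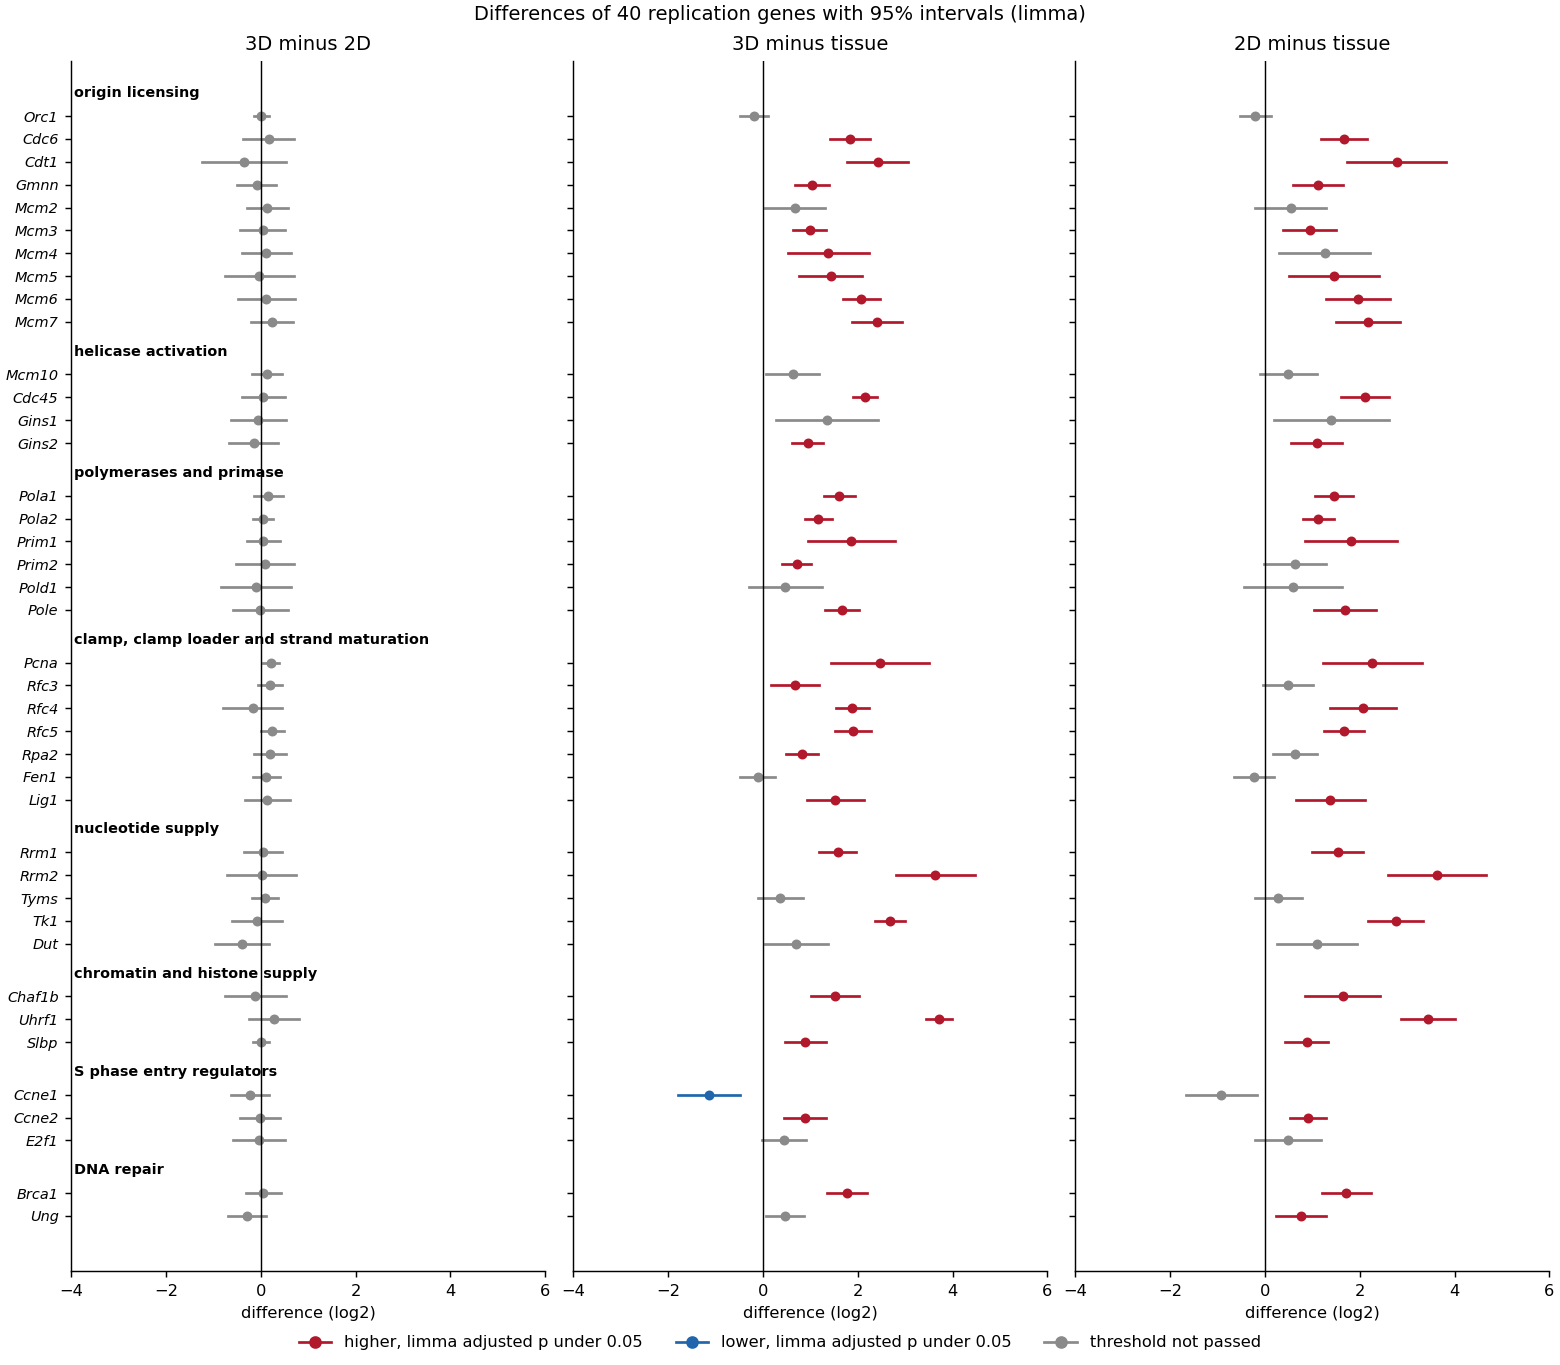
Differences of the 40 replication genes (points) with 95% intervals from limma (lines), on a log2 scale, ordered by function, for 3D minus 2D, 3D minus tissue and 2D minus tissue. All 40 points of 3D minus 2D lie between -0.40 and 0.27, whereas those against tissue reach 3.72 in 3D and 3.62 in 2D.

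The make-up of the samples differed too. Against tissue, 20.1% of all genes were called higher and 15.5% lower in 3D, and 14.3% and 9.87% in 2D. The counts of marker genes called against all tissue arrays stand beside these shares. The mean level of 10 skeletal muscle genes was 5.15 to 5.24 on the 3D arrays, 5.13 to 5.32 in 2D and 5.32 to 9.07 in tissue. Tissue replicates 2 and 3 had the narrowest distribution of values (SD over probe sets 2.14 and 1.93, beside 2.31 to 2.42 on the other 10 arrays). The mean of 8 sympathetic neuron genes, Th and Dbh among them, was 10.48 to 11.33 in 3D, 10.29 to 11.92 in 2D and 10.78 to 12.82 in tissue. Against tissue, 5 of the 8 were called lower in 3D and 1 in 2D, and 0 higher in either. The mean of 8 satellite glia and Schwann cell genes was 10.77 to 10.94 in 3D, 10.55 to 10.96 in 2D and 10.01 to 10.96 in tissue, but its genes did not move together: 3 of 8 (Sox10, Erbb3 and Foxd3) were called higher in each culture than in tissue and 2 lower, Kcnj10 and Glul in 3D and Glul and Ednrb in 2D. The mean of 10 fibroblast genes was 11.44 to 11.87 in 3D, 11.12 to 11.69 in 2D and 10.21 to 11.79 in tissue. These genes did not move together either: 2 were called higher and 1 lower in 3D than in tissue, and 2 and 2 in 2D. The mean of 10 endothelial genes was 5.92 to 6.29 in 3D, 5.81 to 6.54 in 2D and 6.72 to 7.99 in tissue (7 of 10 called lower in 3D and 6 in 2D). That of 10 macrophage genes was 7.25 to 7.65 in 3D, 5.95 to 8.70 in 2D and 7.90 to 8.58 in tissue (2 called higher and 6 lower in 3D, 1 and 1 in 2D), and that of 12 pan-neuronal genes 10.73 to 11.42 in 3D, 10.28 to 11.70 in 2D and 10.73 to 12.34 in tissue (5 called lower in 3D and 2 in 2D). The part of these differences in the results below was not tested. With tissue replicate 1, the array without the raised muscle genes, as the only tissue array, 35 of the 40 members were called higher and 1 lower in 3D (22% and 18.1% of all genes), and 7 higher and 0 lower in 2D (3.03% and 1.86%). With tissue replicates 1 and 4 alone, an alternative chosen after seeing the data, 35 were called higher and 1 lower in 3D (24.6% and 22.7% of all genes) and 27 higher and 0 lower in 2D (12.3% and 10.1%).

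The promoters of several members are shown because the genes moved together and because E2F sites are what many of them are known for. RefSeq windows (GRCm38.p6) from 250 bases before to 50 bases after the start were at hand for 33 of the 40 genes, in 38 windows. The letters searched, on both strands, were an E2F core (TTCCCGC or else TTCGCGC or else TTGCCGC or else TTGGCGC, whose matches can overlap on opposite strands), the CCAAT box (CCAAT) and the CHR element (TTTGAA). The E2F core was in 23 of the 38 windows (60.5%), beside 9.6% of all 32851 windows of this length. The CCAAT box was in 20 (52.6%, beside 37.4%) and the CHR element in 3 (7.9%, beside 17.9%). The windows of a second list of replication genes, described further on, held the E2F core in 30 of 56 (53.6%). The 250 bases before the start, read 5′ to 3′ on the strand of the gene, are printed for Mcm6, whose window held the most E2F core matches, for both starts of Uhrf1 and for Cdc45, which had adjusted p-values among the 3 smallest in 2D against tissue, and for Ccne1, the only member called lower. Capitals mark the matches of the 3 motifs that lie wholly within the printed bases.
Mcm6 (chr1:128359706-128359955, minus strand): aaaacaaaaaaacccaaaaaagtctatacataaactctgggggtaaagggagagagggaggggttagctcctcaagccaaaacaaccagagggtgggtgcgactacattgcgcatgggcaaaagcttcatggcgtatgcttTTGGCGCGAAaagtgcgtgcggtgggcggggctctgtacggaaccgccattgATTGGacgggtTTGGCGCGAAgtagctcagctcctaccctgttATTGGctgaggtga
Uhrf1 upstream start (chr17:56303087-56303336, plus strand): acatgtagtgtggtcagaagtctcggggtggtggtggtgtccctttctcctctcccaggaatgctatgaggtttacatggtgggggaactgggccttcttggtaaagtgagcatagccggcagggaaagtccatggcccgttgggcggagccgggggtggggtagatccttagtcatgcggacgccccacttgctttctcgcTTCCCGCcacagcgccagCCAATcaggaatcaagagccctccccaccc
Uhrf1 other start (chr17:56304063-56304312, plus strand): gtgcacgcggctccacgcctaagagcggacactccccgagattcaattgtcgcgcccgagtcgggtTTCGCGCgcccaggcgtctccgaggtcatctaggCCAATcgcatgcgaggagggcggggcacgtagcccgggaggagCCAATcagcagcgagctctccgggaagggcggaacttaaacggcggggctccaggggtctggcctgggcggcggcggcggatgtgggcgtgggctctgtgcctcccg
Cdc45 (chr16:18811973-18812222, minus strand): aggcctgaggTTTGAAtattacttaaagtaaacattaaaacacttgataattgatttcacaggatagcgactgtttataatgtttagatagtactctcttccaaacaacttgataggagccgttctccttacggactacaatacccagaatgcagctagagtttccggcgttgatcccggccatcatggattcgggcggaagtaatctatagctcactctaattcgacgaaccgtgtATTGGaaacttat
Ccne1 (chr7:38107491-38107740, minus strand): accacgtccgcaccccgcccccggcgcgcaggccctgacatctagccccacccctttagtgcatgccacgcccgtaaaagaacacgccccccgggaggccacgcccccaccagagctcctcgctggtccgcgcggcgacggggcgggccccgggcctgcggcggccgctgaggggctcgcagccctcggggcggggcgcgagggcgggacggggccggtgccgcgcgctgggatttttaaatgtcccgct
In Mcm6 each run of TTGGCGCGAA holds 2 overlapping E2F core matches on opposite strands, 109 and 46 bases before the start, and a CCAAT box on the reverse strand stands 57 and again 14 bases before it. The E2F core stood 48 bases before the upstream start of Uhrf1 and 184 bases before the other. At the upstream start, CCAAT boxes that begin 2 bases before and 2 bases after it are not in capitals. Cdc45 had no E2F core in its window and had a CHR match 240 bases and a CCAAT box 13 bases before the start. Its other CCAAT box begins 2 bases before the start and its other CHR match 11 bases after it, and neither lies wholly within the printed bases, so they are not in capitals. Tk1 and Ccne1 had none of the 3 motifs in these letters. Genes with an E2F core in a window were called higher in 17 of 20 cases in 3D against tissue (median difference 1.60) and in 15 of 20 in 2D against tissue (1.59). Those without were called higher in 6 of 13 (0.71) in 3D and 7 of 13 (0.88) in 2D. Of all genes, 20.1% were called higher in 3D and 14.3% in 2D. The split rests on the probe sets used. Mcm2, without an E2F core, and Fen1 and Pold1, with one, were called only on other probe sets, as described below. The same held in 3D for Orc1, with one, and E2f1, without one, and in 2D for Rfc3 and Rpa2, both with one. The part of E2F in these differences was not tested. The motif matches describe letters and not bound sites.

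Origin licensing starts with ORC, to which Cdc6 and Cdt1 bring the MCM2-7 helicase, and geminin (Gmnn) blocks Cdt1 afterwards. Of the 10 genes of this step, 8 were called higher in 3D than in tissue and 7 higher in 2D than in tissue. Beside this count and those of the steps below, 20.1% of all genes were called higher in 3D and 14.3% in 2D. The value of Cdc6 was 7.37, 6.57, 6.77 and 6.73 on the 3D arrays, 6.98, 6.11, 6.66 and 7.04 on the 2D arrays, and 5.08, 4.85, 5.03 and 5.17 in tissue. No culture array overlapped with a tissue array. Cdc6 was 3.55-fold higher in 3D (difference 1.83 ± 0.19, limma adjusted p = 1.93e-04) and 3.17-fold higher in 2D (1.67 ± 0.22, adjusted p = 0.00161).

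On the probe sets used, Cdt1 had the largest difference of the step, 2.42 in 3D (5.36-fold) and 2.79 in 2D (6.89-fold) against tissue. Its 3D replicates lay between 10.09 and 10.51 and its 2D replicates between 9.73 and 11.88, both above the 7.26 to 8.43 of tissue. Its inhibitor Gmnn rose by 1.03 in 3D and 1.12 in 2D (limma adjusted p = 0.00163 and 0.0121). Orc1, the large subunit of ORC, was not called: it read 7.06 to 7.16 in 3D, 7.02 to 7.17 in 2D and 7.07 to 7.52 in tissue on the probe set used.

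Of the helicase subunits, Mcm7 and Mcm6 rose most on the probe sets used, by 2.41 and 2.08 in 3D and by 2.17 and 1.97 in 2D. Mcm7 read 11.01, 11.02, 11.15 and 10.98 in 3D, 10.63, 10.29, 11.28 and 11.00 in 2D, and 8.88, 8.81, 7.87 and 8.97 in tissue. Tissue replicate 3 was the lowest array for Mcm7, and the culture arrays did not overlap with tissue. Mcm6 read 9.93 to 10.26 in 3D, 9.14 to 10.58 in 2D and 7.65 to 8.32 in tissue.

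Mcm3 and Mcm5 were called in 3D against tissue (0.98 and 1.43, limma adjusted p = 0.00158 and 0.00631) without overlap of the arrays, and in 2D (0.94 and 1.47, adjusted p = 0.0285 and 0.0373) with overlap. Mcm4 was called in 3D (1.38, adjusted p = 0.0223) and not in 2D (1.26, adjusted p = 0.063), and Mcm2 in neither (0.68 in 3D and 0.54 in 2D). Single arrays decided several of these calls. Mcm3 lost its call in 2D when 2D replicate 1, 3 or 4 or tissue replicate 1 or 2 was left out (0.81 to 0.98, adjusted p 0.0527 to 0.0793), and Mcm5 when the array left out was 2D replicate 1, 3 or 4 or tissue replicate 1, 2 or 4 (1.17 to 1.58, adjusted p 0.0642 to 0.0908). Mcm4 lost its call in 3D without 3D replicate 2, 3 or 4 (1.31 to 1.40, adjusted p 0.0544 to 0.0626) and gained one in 2D without tissue replicate 3 (1.58, adjusted p = 0.0224). Mcm2 was called in 3D without tissue replicate 3 (0.92, adjusted p = 0.00896). These calls also depend on the probe set, as described below for Mcm2 and Mcm5. Mcm4 was called in 2D on its other probe set, 1416214_at (1.58, limma adjusted p = 0.00177). For Mcm3, all culture arrays lay above all tissue arrays on 1420028_s_at, 1426652_at and 1426653_at, but not on 1420029_at.

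Cdc45 and the GINS complex turn the loaded helicase on, and of the 4 genes of this step 2 were called higher in each culture. Cdc45 read 8.02, 8.09, 8.08 and 8.01 in 3D, 7.68, 7.56, 8.51 and 8.25 in 2D, and 5.98, 5.80, 5.87 and 5.91 in tissue. The 4 tissue values lay within 0.18 of each other and 1.58 below the lowest culture array. On the probe set used, Cdc45 was 4.47-fold higher in 3D (2.16 ± 0.11, limma adjusted p = 6.1e-06) and 4.32-fold higher in 2D (2.11 ± 0.22, adjusted p = 5.71e-04). Gins2 rose by 0.94 in 3D and 1.10 in 2D.

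Gins1 and Mcm10, a scaffold that joins the helicase to primase, were not called. Gins1 read 6.61 to 6.82 in 3D, 6.26 to 7.59 in 2D and 6.02, 5.92, 3.66 and 5.84 in tissue. All culture arrays lay above tissue, but tissue replicate 3 stood far below the other tissue arrays. Without it the difference between 3D and tissue was 0.78 with a limma adjusted p of 9.49e-04, in place of 1.35 with 0.057 for all arrays, and without tissue replicate 1 it was 1.57 with 0.0422. Mcm10 read 7.57 to 7.88 in 3D, 7.34 to 7.85 in 2D, and 6.71, 7.54, 7.58 and 6.58 in tissue, so that tissue replicates 2 and 3 overlapped with the cultures. Without tissue replicate 3, Mcm10 was called in 3D against tissue (0.79, adjusted p = 0.0264).

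DNA polymerase alpha and its primase lay the primers, and polymerases delta and epsilon extend them. Of the 6 genes, 5 were called higher in 3D and 4 in 2D. Pola1, the catalytic subunit of polymerase alpha, read 9.04, 8.77, 8.79 and 8.93 in 3D, 9.05, 8.41, 8.72 and 8.74 in 2D, and 7.48, 7.18, 7.36 and 7.05 in tissue. The cultures and tissue did not overlap, and the differences were 1.62 ± 0.14 in 3D (3.06-fold, limma adjusted p = 8.42e-05) and 1.46 ± 0.18 in 2D (2.76-fold, adjusted p = 0.00113). The other probe set of Pola1 ran the opposite way, as described below.

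Its partner subunit Pola2 rose by 1.17 in 3D and 1.13 in 2D on the probe set used, and Pole, the catalytic subunit of polymerase epsilon, by 1.68 and 1.69. The primase subunit Prim1 rose by 1.87 in 3D (limma adjusted p = 0.00864) and 1.81 in 2D (adjusted p = 0.0196); it read 9.01 to 9.18 in 3D, 8.53 to 9.27 in 2D, and 7.93, 6.60, 6.15 and 8.09 in tissue. Without 2D replicate 1 or 4 or tissue replicate 2, Prim1 was no longer called in 2D against tissue (1.81, 1.75 and 1.62, adjusted p = 0.0505, 0.0544 and 0.0638). On the probe set used, Prim2, the large primase subunit, was called in 3D (0.72, adjusted p = 0.00404) and not in 2D (0.63, adjusted p = 0.135). On 1418036_at Prim2 was called in 2D as well (1.695, adjusted p = 0.00114), while its remaining probe set lay below 0. Pold1, the catalytic subunit of polymerase delta, read 8.01 to 8.23 in 3D, 7.54 to 9.27 in 2D and 6.87 to 8.61 in tissue and was not called on the probe set used. In 3D against tissue it was called without tissue replicate 3 (0.80, adjusted p = 0.0243).

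The clamp PCNA is loaded by replication factor C, RPA coats the single strand, and Fen1 and Lig1 process and seal the Okazaki fragments. Of these 7 genes, 6 were called higher in 3D and 4 in 2D. Pcna read 12.29, 12.29, 12.37 and 12.36 in 3D, 12.19, 11.98, 12.13 and 12.18 in 2D, and 10.85, 9.56, 8.45 and 10.58 in tissue. The tissue arrays were spread over 2.40 log2 units while the cultures lay within 0.39 of each other. Pcna was 5.53-fold higher in 3D (2.47 ± 0.46, limma adjusted p = 0.00398) and 4.79-fold higher in 2D (2.26 ± 0.46, adjusted p = 0.0109).

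Rfc5, a clamp loader subunit, read 8.54, 8.62, 8.71 and 8.56 in 3D, 8.22, 8.17, 8.54 and 8.54 in 2D, and 6.95, 6.26, 6.83 and 6.77 in tissue. It was 3.75-fold higher in 3D (1.91 ± 0.17, limma adjusted p = 8.36e-05) and 3.17-fold higher in 2D (1.67 ± 0.19, adjusted p = 8.48e-04), without overlap between cultures and tissue. Rfc4 rose by 1.89 in 3D and 2.06 in 2D, and the ligase Lig1 by 1.52 and 1.38. On the probe set used, Rpa2, a subunit of RPA, was called in 3D (0.82, adjusted p = 0.00362) and not in 2D (0.63, adjusted p = 0.058). On 1454011_a_at Rpa2 was called in 2D as well (1.03, adjusted p = 0.026). Fen1 read 10.44 to 10.68 in 3D, 10.17 to 10.65 in 2D and 10.38 to 10.89 in tissue and was not called on this probe set.

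Rfc3, also of the clamp loader, read 7.29, 7.08, 6.92 and 7.06 in 3D, 6.82, 6.80, 6.80 and 7.15 in 2D, and 6.16, 6.60, 6.97 and 5.92 in tissue, so that tissue replicate 3 lay within the range of the cultures. On this probe set it was called in 3D (0.68, limma adjusted p = 0.0477) and not in 2D (0.48, adjusted p = 0.156). The call in 3D was lost when any 1 of the 3D replicates or tissue replicate 1, 2 or 4 was left out (0.51 to 0.74, adjusted p 0.0726 to 0.121), and without tissue replicate 3 Rfc3 was called in 2D (0.67, adjusted p = 0.0382). On its other probe set (1423700_at) Rfc3 was called in 2D with all arrays (1.93, limma adjusted p = 0.0051). There the lowest culture array lay 0.95 above the highest tissue array.

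Nucleotide supply, in which 3 of 5 genes were called higher in each culture, held the member with the largest difference between 2D and tissue. Rrm2, the regulatory subunit of ribonucleotide reductase that is made in S phase, read 11.33, 10.80, 10.86 and 11.00 in 3D, 10.79, 10.10, 11.79 and 11.25 in 2D, and 6.75, 7.74, 8.33 and 6.61 in tissue. The lowest culture array lay 1.77 above the highest tissue array. Rrm2 was 12.5-fold higher in 3D (3.64 ± 0.36, limma adjusted p = 1.78e-04) and 12.3-fold higher in 2D (3.62 ± 0.46, adjusted p = 0.00138). Its partner Rrm1, the large subunit, rose by 1.58 in 3D and 1.53 in 2D on the probe set used.

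Tk1, the thymidine kinase of dividing cells, read 8.86, 8.77, 8.80 and 8.59 in 3D, 8.63, 8.29, 9.55 and 8.87 in 2D, and 6.01, 6.34, 5.97 and 5.98 in tissue. No culture array overlapped with tissue. Tk1 was 6.41-fold higher in 3D (2.68 ± 0.14, limma adjusted p = 5.86e-06) and 6.77-fold higher in 2D (2.76 ± 0.26, adjusted p = 3.09e-04). Dut, which removes dUTP, was not called (0.71 in 3D and 1.10 in 2D, adjusted p = 0.091 and 0.062): it read 8.50 to 8.77 in 3D and 8.34 to 9.65 in 2D, and its tissue values of 8.36, 7.43, 7.25 and 8.57 overlapped with both. Without tissue replicate 4 it was called in both cultures (0.93 in 3D and 1.32 in 2D, adjusted p = 0.025 and 0.0348). The thymidylate synthase gene Tyms read 5.15 to 5.49 in 3D, 5.03 to 5.44 in 2D and 4.30 to 5.26 in tissue and was not called. All of these values lie under 6, the level set here for dim probe sets.

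All 3 measured genes of the chromatin group were called higher in both cultures. Uhrf1, which brings the maintenance methyltransferase to newly copied DNA, had the smallest adjusted p of all members in both comparisons with tissue. It read 10.00, 9.94, 9.92 and 9.85 in 3D, 9.59, 8.96, 10.23 and 9.84 in 2D, and 6.19, 6.39, 6.07 and 6.19 in tissue. The lowest culture array lay 2.57 above the highest tissue array. Uhrf1 was 13.2-fold higher in 3D (3.72 ± 0.12, limma adjusted p = 1.36e-06) and 10.9-fold higher in 2D (3.45 ± 0.25, adjusted p = 1.09e-04).

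Chaf1b, a subunit of the histone chaperone CAF-1, rose by 1.53 in 3D and 1.64 in 2D on the probe set used. Slbp, which binds the stem-loop of histone mRNAs, rose by 0.89 in 3D and 0.88 in 2D on the probe set used (limma adjusted p = 0.00785 and 0.0176). Without 2D replicate 4 the difference of Slbp in 2D was 0.83 with an adjusted p of 0.0537.

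The 3 regulators of S phase entry did not move together. Ccne2, a cyclin that activates CDK2, read 8.75, 7.93, 8.03 and 8.22 in 3D, 8.33, 7.93, 8.45 and 8.29 in 2D, and 7.49, 7.48, 7.21 and 7.19 in tissue. It rose by 0.89 ± 0.19 in 3D (limma adjusted p = 0.0086) and by 0.91 ± 0.16 in 2D (adjusted p = 0.00662), without overlap between cultures and tissue. Its relative Ccne1 read 8.57, 8.51, 8.55 and 8.39 in 3D, 8.64, 8.27, 9.20 and 8.81 in 2D, and 9.03, 10.03, 10.36 and 9.17 in tissue. All 3D arrays lay below all tissue arrays, as for 18.3% of all genes, while 2D replicate 3 lay within the tissue range.

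Ccne1 fell by 1.14 ± 0.29 in 3D (limma adjusted p = 0.0158) and was not called in 2D (-0.92 ± 0.33, adjusted p = 0.0741). The call in 3D was lost without tissue replicate 2 (-1.01, adjusted p = 0.0501), and a call in 2D appeared without tissue replicate 1 (-1.12, adjusted p = 0.0403). E2f1, a transcription factor that drives this set of genes, was not called on the probe set used (0.44 in 3D and 0.48 in 2D, adjusted p = 0.124 and 0.261). It read 7.83 to 8.01 in 3D, 7.45 to 8.65 in 2D, and 7.08, 7.38, 8.07 and 7.33 in tissue, where replicate 3 lay above all 3D arrays, and without that array it was called in 3D (0.64, adjusted p = 0.00337). Another probe set of E2f1 was called higher in 3D against tissue, and none was in 2D.

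Of the 2 repair genes in the list, Brca1, which acts in homologous recombination, read 7.75, 7.50, 7.45 and 7.66 in 3D, 7.66, 7.18, 7.95 and 7.37 in 2D, and 5.57, 6.05, 6.18 and 5.48 in tissue. On the probe set used, Brca1 was 3.41-fold higher in 3D (1.77 ± 0.19, limma adjusted p = 2.22e-04) and 3.29-fold higher in 2D (1.72 ± 0.23, adjusted p = 0.00177), without overlap. Ung, which removes uracil from DNA, was not called in 3D (0.47, adjusted p = 0.0666) and was called in 2D (0.76, adjusted p = 0.0461). Its call in 2D was lost when any 1 array other than tissue replicate 3 was left out (0.59 to 0.88, adjusted p 0.0565 to 0.104), and without tissue replicate 3 it was called in 3D (0.57, adjusted p = 0.025).

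**Figure D2:**
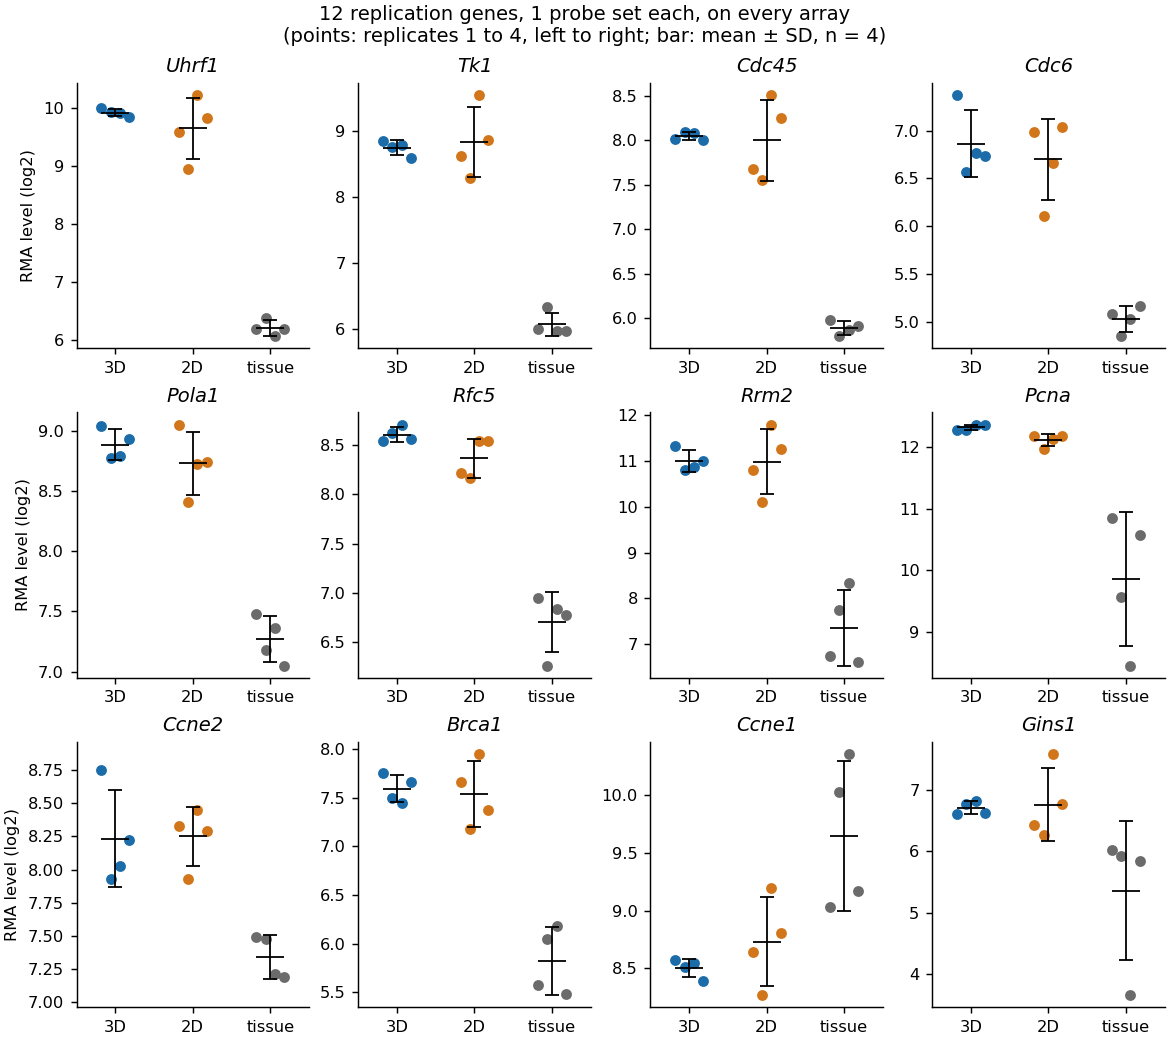
RMA levels (log2) of 12 replication genes on every array, 3D, 2D and tissue from left to right, with replicates as points and mean ± SD as bars (n = 4). The cultures stand apart from tissue for Uhrf1, Tk1, Cdc45 and Rrm2, tissue is spread over 2.40 units for Pcna, tissue replicate 3 is alone at 3.66 for Gins1, and the highest levels of Ccne1 are in tissue.

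Many members are measured by several probe sets, and these did not always give the same picture. The 40 genes have 90 probe sets, of which 56 were called higher and 2 lower in 3D against tissue, where 17.1% and 16% of all 45037 probe sets were called, and 51 higher and 0 lower in 2D against tissue, where 11.9% and 10.4% were. In 3D against 2D, 0 of 90 were called, beside 0.0133% higher and 0.00222% lower. Of the 40 genes, 6 had no probe set called higher in 3D (Mcm10, Gins1, Tyms, Dut, Ccne1 and Ung) and 7 had none called higher in 2D (Orc1, Mcm10, Gins1, Tyms, Dut, Ccne1 and E2f1). Apart from that of Ccne1, the probe set called lower in 3D was of Dut (1419269_at, -0.85, limma adjusted p = 0.0153).

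For the helicase, probe sets whose names end in _x_at or _s_at, which by their design may also match other transcripts, stood for Mcm2 to Mcm7. The other probe set of Mcm2 (1448777_at) read 8.89, 8.83, 8.69 and 8.78 in 3D, 8.75, 8.19, 8.58 and 8.66 in 2D, and 6.51, 5.83, 5.56 and 6.06 in tissue. With it Mcm2 was higher by 2.81 in 3D (limma adjusted p = 2.9e-05) and by 2.56 in 2D (adjusted p = 2.4e-04), without overlap. The probe set used (1434079_s_at) read 10.01, 9.94, 10.00 and 9.92 in 3D, 9.94, 9.21, 10.21 and 9.96 in 2D, and 8.96, 9.57, 10.02 and 8.60 in tissue. Tissue replicate 3 was thus the highest tissue array on one and the lowest on the other.

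Mcm5 also differed more on its other bright probe set (1415945_at), with 9.16 to 9.34 in 3D, 8.38 to 9.36 in 2D and 4.81 to 5.84 in tissue, which is 15.9-fold higher in 3D and 13.2-fold in 2D, against 2.70-fold and 2.76-fold on the one used. Fen1 changed its sign: 1421731_a_at read 8.77 to 9.03 in 3D, 8.03 to 8.91 in 2D and 4.74 to 7.05 in tissue, with differences of 2.78 in 3D and 2.39 in 2D (limma adjusted p = 0.00217 and 0.0103), against -0.11 and -0.23. Pold1 rose by 1.35 in 3D and 1.37 in 2D on 1448187_at (adjusted p = 4.09e-04 and 0.00422). Rrm2 rose on each of its 3 probe sets, by 3.46 to 4.76 in 3D and 2.99 to 4.63 in 2D.

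In 15 of the 31 genes with several probe sets, these lay on both sides of 0 in each comparison with tissue. They were Orc1, Cdt1, Mcm10, Cdc45, Pola1, Pola2, Prim2, Fen1, Rrm1, Tyms, Dut, Chaf1b, Slbp, Ccne1 and Brca1. In each comparison, 0 of the 31 genes had probe sets called in opposite directions. Pola1 read 4.77 to 4.94 in 3D, 4.54 to 4.90 in 2D and 4.97 to 6.60 in tissue on 1459319_at (-0.80 in 3D and -0.86 in 2D, limma adjusted p = 0.0807 and 0.0855). In both cultures this probe set lay under 6, the level set here for dim probe sets. The mean of both probe sets of Pola1 was not called (0.41 in 3D and 0.30 in 2D, adjusted p = 0.104 and 0.248). Pola2 gave -0.31 and -0.52 in 3D and -0.21 and -0.22 in 2D on its other probe sets, none of them called, and the mean of all 3 was not called either (0.12 in 3D and 0.23 in 2D, adjusted p = 0.498 and 0.265). When its probe sets were averaged, Chaf1b lost its call in 2D (0.62, limma adjusted p = 0.0717).

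For Ccne1 the other probe set (1416492_at) read 7.38, 7.40, 7.53 and 7.46 in 3D, 7.50, 7.13, 7.89 and 7.69 in 2D, and 7.15, 7.26, 6.86 and 7.47 in tissue. It gave 0.26 in 3D (limma adjusted p = 0.204) and 0.37 in 2D (adjusted p = 0.205), so that the fall of Ccne1 rests on 1441910_x_at. Slbp was not called on its other probe sets (-0.77 and -0.14 in 3D, -0.35 and -0.10 in 2D). Orc1 was called in 3D on 1422663_at (0.49, adjusted p = 0.0454). When probe sets ending in _x_at or _s_at were left out, an alternative chosen after seeing the data, 32 members were called higher and 0 lower in 3D (21% and 14.4% of all genes), and 30 higher and 0 lower in 2D (14.8% and 9.1%).

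**Figure D3:**
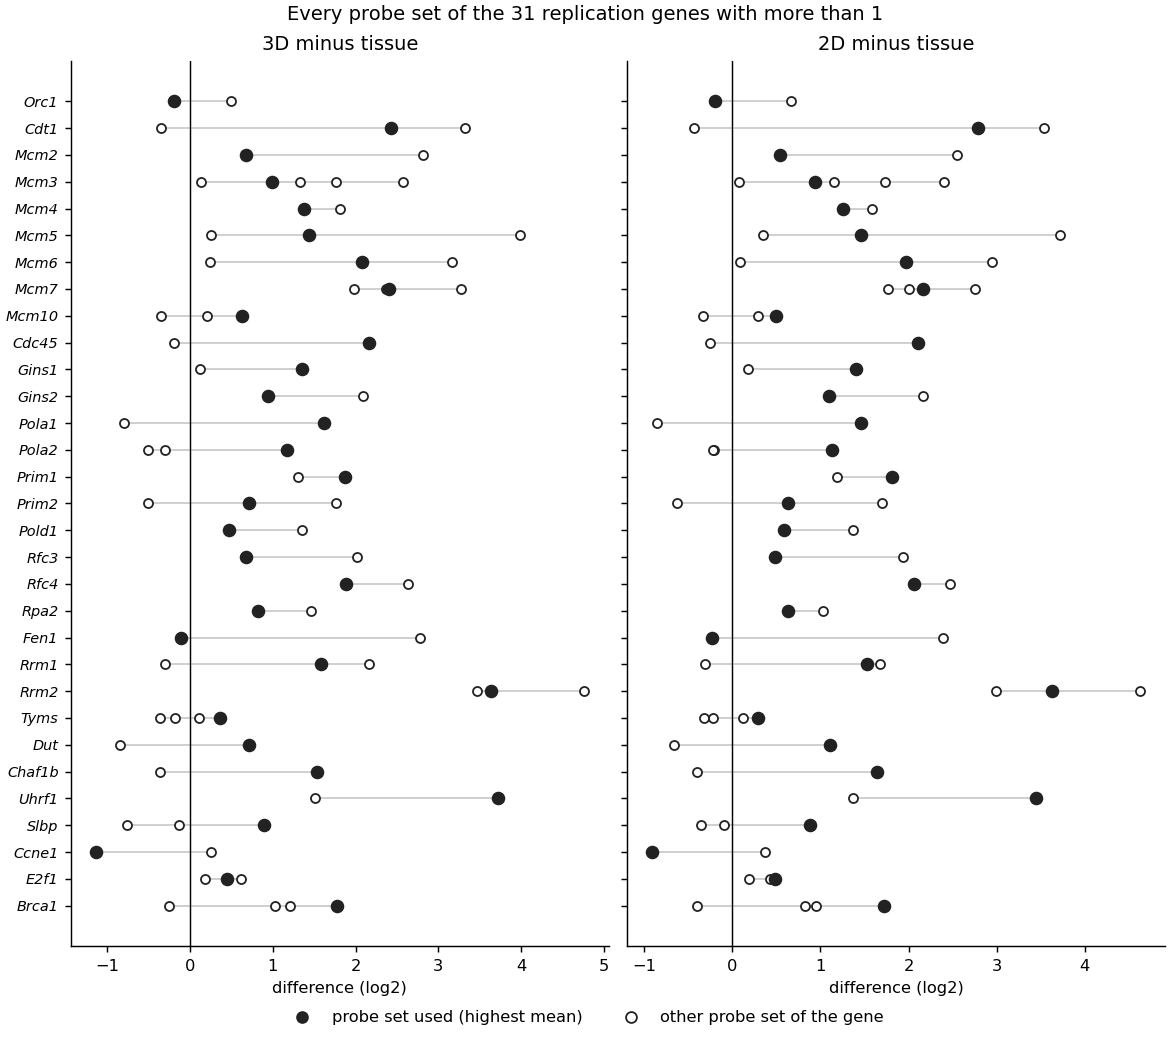
Difference from tissue (log2) of every probe set of the 31 replication genes with more than 1, for 3D minus tissue (left) and 2D minus tissue (right); filled circles are the probe sets used and open circles the others. Mcm2, Mcm5 and Fen1 have another probe set with a larger difference (2.81, 3.99 and 2.78 in 3D), and 15 genes, Cdt1, Cdc45, Pola1, Pola2, Brca1, Slbp and Ccne1 among them, have probe sets on both sides of 0.

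Growth in the scaffold was compared with growth on the flat substrate directly. The difference between 3D and 2D was -0.40 (Dut) to 0.27 (Uhrf1) with a median of 0.05 over the 40 genes, beside 0.01 for all genes. The 95% interval lay within 2-fold in either direction for 39 of 40 genes, the exception being Cdt1, whose interval reached -1.25. At an unadjusted p under 0.05, 1 of 40 was higher and 0 lower in 3D, beside 7.57% and 5.5% of all genes.

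The gene was Pcna, with the values given above. Its 3D arrays lay just above its 2D arrays without overlap, the only member in either direction (4.49% of all genes lay above and 2.87% below), by 0.21 ± 0.07 or 1.15-fold (limma adjusted p = 0.347). The next smallest adjusted p-values were those of Rfc5 (0.24 ± 0.11, adjusted p = 0.443) and Rfc3 (0.20 ± 0.11, adjusted p = 0.551), both in the clamp loader, and their 3D and 2D arrays overlapped.

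The replicates of 2D differed from each other more than those of 3D. The median SD of the members was 0.110 in 3D, 0.432 in 2D and 0.336 in tissue, beside 0.118, 0.189 and 0.371 over all genes. The SD was larger in 2D than in 3D for 39 of 40 members and for 75.7% of all genes. Within 2D the members moved together: replicate 3 was the highest of the 4 arrays for 29 of 40 genes and replicate 2 the lowest for 34 of 40. The median deviation from the 2D mean was 0.46 on replicate 3 and -0.48 on replicate 2, beside 0.04 and -0.02 for all genes.

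The mean level of the 40 genes was 8.71, 8.65, 8.75 and 8.64 on the 3D arrays, 8.53, 8.22, 9.11 and 8.80 on the 2D arrays, and 7.31, 7.45, 7.41 and 7.24 in tissue. The 3D arrays lay inside the range of the 2D arrays, and both lay above tissue. On the 2D arrays the mean of 10 macrophage genes was 7.71, 6.75, 5.95 and 8.70, and that of the 8 sympathetic neuron genes 11.92, 11.68, 11.81 and 10.29. The macrophage list was thus lowest on replicate 3, where the members were highest, while replicate 2, where the members were lowest, had the second lowest macrophage level. The part of these cells in the spread of the members was not tested.

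**Figure D4:**
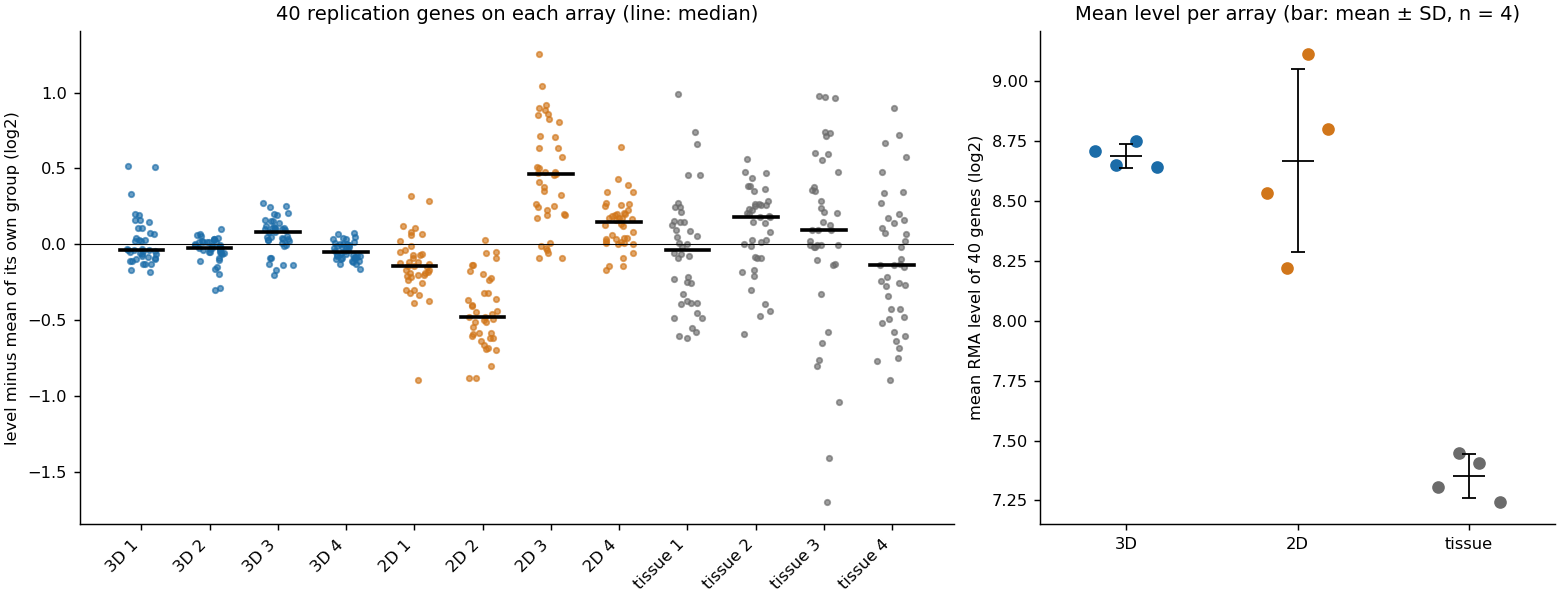
Left, deviation of each of the 40 replication genes from the mean of its own group on each array (log2), with the median as a line; right, mean RMA level of the 40 genes on each array, with mean ± SD (n = 4). The medians of the 3D arrays stay close to 0 while 2D replicate 2 lies at -0.48 and 2D replicate 3 at 0.46, and the tissue means of 7.24 to 7.45 lie below all culture arrays.

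Other genes of replication and S phase, a list of 60 of which 57 were measured, gave smaller shares of higher calls than the members. In 3D against tissue 28 (49.1%) were called higher and 2 lower (median difference 0.65), beside 20.1% and 15.5% of all genes. In 2D against tissue 26 of 57 (45.6%) were called higher and 0 lower (median 0.69), beside 14.3% and 9.87%. In 3D against 2D 0 were called, with 3 higher and 1 lower at an unadjusted p under 0.05, beside 7.57% and 5.5% of all genes.

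The 6 with the smallest adjusted p in 2D against tissue were Dbf4, the activator of the CDC7 kinase that fires origins (3.24 in 3D, 3.46 in 2D), Ccna2, the cyclin of S and G2 phase (2.74 and 2.71), the histone chaperone Nasp (2.12 and 1.90), the polymerase epsilon subunit Pole2 (2.38 and 2.28), the PCNA partner Pclaf (2.81 and 2.98) and the chromatin factor Atad2 (2.07 and 2.12). Dbf4 read 9.17, 9.01, 8.96 and 8.91 in 3D, 9.06, 8.99, 9.40 and 9.51 in 2D, and 5.80, 5.78, 5.89 and 5.64 in tissue, which is 9.42-fold higher in 3D (limma adjusted p = 1.71e-06) and 11.0-fold higher in 2D (adjusted p = 1.77e-05). At the other end, E2f2, Exo1 and Gins3 differed by -0.03, -0.07 and -0.03 in 2D and were not called.

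The 2 genes called lower than tissue in 3D were Samhd1, which breaks down deoxynucleotides (-0.74, limma adjusted p = 0.0109), and the thymidylate kinase gene Dtymk (-0.55, adjusted p = 0.011). Samhd1 read 8.43, 8.60, 8.52 and 8.49 in 3D, 8.89, 8.81, 9.15 and 9.06 in 2D, and 8.97, 9.70, 9.11 and 9.20 in tissue. Its 3D arrays lay below those of both other groups, but in 3D against 2D its adjusted p was 0.168 (-0.47 ± 0.09) and it was not called.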

How the data were processed

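Total RNA of SCG cells in 3D, SCG cells in 2D and SCG tissue was hybridised to 12 Affymetrix arrays, 4 per group. The authors deposited log2 values, which Expression Console had computed by RMA, a method that corrects background, makes the probe values of the arrays alike in distribution and combines the probes of a probe set; its version is not stated in the labels or methods. A change common to most genes is lost in such values. No scan dates or scanner output entered the comparisons, and batches could not be examined. The number of arrays limits the precision, and p-values set the difference between groups against the spread between labelled replicates.

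Of 45101 probe sets, 64 controls were left out. Of the other 45037, 34945 had 1 symbol in the platform annotation, 932 several and 9160 none given here; 34741 matched a current gene record. Pairs of groups were compared on their 8 arrays with limma 3.58.1 (lmFit, eBayes) in R 4.3.3, with Benjamini-Hochberg adjustment over all 45037 and a threshold of 0.05. The test was checked on simulated data for 18193 genes: of 100 genes changed 4-fold, 98% were recovered in 3D against 2D, 85% in 3D against tissue and 72% in 2D against tissue, and of 100 changed 2-fold 67%, 34% and 29%. The changed genes were drawn from all genes, whose median SD in 2D was 0.189, beside 0.432 for the members. Far fewer genes were changed than were called against tissue. These shares therefore do not measure how often a changed member would be called. No 2 arrays held identical values. An exact permutation test of 1 gene, two-sided, has 70 splits of 8 arrays and a smallest p of 0.0286.

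The members and all lists were chosen with earlier results of these data known. Every member may be named. Values on all arrays are given, by a rule, for the 3 members of smallest adjusted p in each comparison, those called against the majority, and the member of smallest adjusted p in 2D against tissue in each functional group. Of the other replication genes the 6 of smallest and 3 of largest p in 2D against tissue and those called against the majority are named. Further members were given in full after their values were seen (Mcm7, Rrm2 and Mcm2 among them). Promoter sequences are from RefSeq; 7 of the 40 genes had none at hand. Alternatives covered the fit, the scaling, dim probe sets (level under 6), the choice of probe set, a 2-fold minimum, the methods' t-test and leaving out arrays.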

Additional observations from a re-analysis of the deposited data

Results flagged for a closer look

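The 40 replication genes were examined in each of the 3 groups for an array that stands apart from the other 3 by Dixon's criterion at the 95% level. This held in 9 of 120 groups of 4, where chance alone gives about 1 in 20. Of the 9, 3 were on tissue replicate 3, the array with the narrowest distribution of values: Gins1 at 3.66 (nearest 5.84), Mcm7 at 7.87 (nearest 8.81) and Slbp at 8.83 (nearest 9.56). The other tissue arrays were Tk1 at 6.34 on replicate 2 (nearest 6.01) and Prim2 at 6.97 on replicate 4 (nearest 7.32). In 2D, replicate 4 stood apart for Rfc3 at 7.15 (nearest 6.82) and Slbp at 10.45 (nearest 10.24). In 3D the values were Rfc4 at 7.86 on replicate 4 (nearest 7.96) and Tyms at 5.49 on replicate 3 (nearest 5.19). Without tissue replicate 3, Gins1 was called in 3D against tissue (0.78, limma adjusted p = 9.49e-04).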

How the results depend on the processing

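The members' counts of higher calls stayed within 1.5 times under each other setting, except in 2D against tissue with tissue replicate 1 as the only tissue array (7 members, 10 other replication genes, and 551 higher and 339 lower of all genes); the lone array was assumed to vary like the other group. Leaving out 1 array at a time gave 27 to 35 members higher and 0 to 1 lower in 3D against tissue (27 of the 30 called were called in all 8 fits) and 21 to 28 higher and 0 to 1 lower in 2D against tissue (21 of 26). Of the other replication genes it gave 24 to 32 higher and 2 to 3 lower in 3D, and 19 to 28 higher and 0 to 0 lower in 2D. Of all genes it gave 2553 to 4363 higher and 1817 to 3505 lower in 3D, 1475 to 3142 and 868 to 2070 in 2D, and 0 to 62 and 0 to 61 in 3D against 2D, where members and other replication genes had 0 to 0.

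In 3D against 2D, where 3 of all genes were called higher and 0 lower, array weights gave 196 and 116, 1 fit of all 12 arrays 1 lower, the methods' t-test 1316 and 802 unadjusted (1 member higher, 3 other replication genes higher and 1 lower) and 0 higher after adjustment, and leaving out 3D replicate 1 and 2D replicate 4 together 446 and 911.

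In 3D against tissue, 0 members were called lower with the adjusted t-test and without _x_at and _s_at probe sets. Of the other replication genes 1 was lower with 1 fit of all arrays, 4 with array weights, cyclic loess or centring, 5 with tissue replicate 1 alone or tissue replicates 1 and 4 alone, and 0 at a 2-fold minimum, which left 2252 higher and 1368 lower of all genes.

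In 2D against tissue, 1 member (Ccne1) was called lower with 1 fit of all arrays or centring. With array weights, cyclic loess, the probe set of highest SD or no _x_at and _s_at probe sets, 1 other replication gene was lower. Of all genes, 3905 were higher and 3267 lower with 1 fit of all arrays, 1557 and 1111 with the adjusted t-test, and 1564 and 1010 without 2D replicate 4; lower calls were 3038 with array weights, 3021 with centring, 3130 with the unadjusted t-test and 914 at a 2-fold minimum.

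Centring on bright probe sets moved the median of all genes to -0.31 against tissue, and the share of higher among all called genes to 39.4% in 3D and 38.4% in 2D, in place of 56.5% and 59.1%; cyclic loess gave 47.7% in both. The members' medians were then 1.09 in 3D and 1.04 in 2D with centring, and 1.04 and 1.03 with cyclic loess.

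Fen1 changed sign with the mean of its probe sets (1.34 in 3D, 1.08 in 2D), with that of highest SD (2.78 and 2.39) and without _x_at and _s_at probe sets (2.78 and 2.39). Slbp did with that of highest SD (-0.77 and -0.35) and, in 3D, with the mean (-0.0033). In 3D Orc1 gave 0.49 with that of highest SD and Ccne1 0.26 without _x_at and _s_at probe sets.

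The replicate numbers were not taken to pair the samples, because the correlation was not over 0.1 for every pair: same-numbered arrays had correlations of their deviations of -0.0669 to 0.407, and 12 of 24 matches were best with the own number, a hint of pairing from the data and not from the design. With the replicate block, 28 members were called higher and 1 lower in 3D against tissue, 27 higher in 2D against tissue and 0 in 3D against 2D, where 0 of all genes were called higher; Rfc3 lost its call in 3D (limma adjusted p = 0.0736) and Dut gained one in 2D (0.0353).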
